A study of Mus musculus with 7 samples.

Results

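Toll-like receptors do not work alone. At the cell surface they need accessory proteins that capture the ligand or fold the receptor, in the endoplasmic reticulum they need an escort to the endosome, and in the cytosol they pass the signal on through adaptor proteins and kinases of the IRAK family. Microglia, the resident macrophages of the retina, use these proteins to respond to microbial products and to molecules released from damaged cells. The genes described here are 10 such partners and adaptors, chosen by symbol: Cd180, Ly86, Cd14, Ly96, Unc93b1, Myd88, Ticam1, Irak1, Irak3 and Irak4. Of the 10, 9 had a row of their own among the 40743 genes of the deposited table. Myd88 had none, and its reads were listed only jointly with those of overlapping genes.

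The values came from retinal microglia (rMG) sorted as CD45low CD11b+ Cx3cr1-GFP+ Ly6C- Ly6G- cells from adult mice bred on a C57BL/6J background free of the Crb1 mutation. All mice had the genotype Cx3cr1GFP/+:Irf8-/-, so every library carries the label Irf8 KO and a GFP allele in place of a copy of Cx3cr1. The 3 unlasered libraries came from untreated mice, and the 4 lasered libraries from mice killed 7 days after laser photocoagulation, the model of choroidal neovascularisation (CNV). Each library pooled an average of 10000 cells from 3 to 4 mice, the central 70% of the retina was used for lasered mice only, and the labels do not say how the pools relate to one another, so p-values measure the spread between these libraries. The comparison asks how the partners and adaptors differ between these cells with and without laser injury. The use of the central retina goes with the laser treatment, and the effects of both cannot be told apart.

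The libraries held 20427558 to 36022954 reads when unlasered and 37133297 to 45919042 when lasered. Levels are given in CPM, a gene's reads scaled by the library total, and a count of 3 reads corresponded to 0.0653 to 0.147 CPM, a limit for counting error only. The targeted gene Irf8 was read at 489 to 530 CPM in unlasered and 463 to 582 CPM in lasered libraries, so that the group names below are those of the labels. The sum of 11 microglia markers was 25354 to 30231 CPM in unlasered and 22844 to 30867 CPM in lasered libraries, while Sall1 of that list stayed at or below 1.36 CPM. Libraries differed in genes used as markers of other cells. The sum of 15 rod photoreceptor genes was 2251 to 20191 CPM in unlasered and 321 to 1019.7 CPM in lasered libraries. The sum of 12 dendritic cell markers was 4068 and 6518 CPM in lasered libraries 1 and 2 against 87.2 to 593 CPM in the other 5. The sum of 7 border macrophage markers was 2210.3 to 2757 CPM without and 1371 to 1591 CPM with laser. Of the 6 tested, 4 had a log2 fold change below 0 and 2 above. Ms4a7 and Pf4 passed as lower (limma adjusted p = 0.0470 and 0.0285), while Mrc1 did not (0.131). Cbr2 had a mean of 5.55 CPM without and 11.9 CPM with laser (limma adjusted p = 0.0799), F13a1 35.3 and 42.9 CPM, and Cd163 66.5 and 66.2 CPM. The sum of 8 neutrophil markers was 302 to 467 CPM without and 367 to 437 CPM with laser, nearly all of it Csf3r at 301 to 466 CPM. Of that list Mmp8 passed as higher (limma adjusted p = 0.0337), with all unlasered libraries at or under the floor and 0.889 to 5.72 CPM with laser. It reached 1 CPM in lasered libraries only. S100a8 had 0.0876 to 7.20 CPM without and 0.269 to 6.86 CPM with laser. S100a9 had 0 to 3.48 and 0 to 1.18 CPM, and Camp 0.245 to 0.583 and 0.0891 to 0.350 CPM, in the same order. Ly6g, Retnlg and Ngp were at or under the floor in every library. In pooled RNA, fewer cells of a type and less RNA per cell cannot be told apart. Which cells the marker RNA came from was not tested. The paper counts Cd74, of the dendritic cell list, among activation markers of rMG. It also found Mrc1, of the border macrophage list, raised in Irf8-deficient rMG.

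After laser injury Cd180 rose, and none of the other 8 measured partners and adaptors passed the test. The test was limma on log2(CPM + 1) over the 17496 genes that reached 1 CPM in 3 or more libraries, with p-values adjusted over all of them. Across all genes tested 6.93% passed an adjusted p of 0.05 in either direction and 3.86% passed as higher and 3.07% as lower, and 1 of 9 members (11.1%) passed as higher. At an unadjusted p under 0.05 there were 4 of 9 members, against 22.7% of all genes tested. The median log2 fold change was 0.27 for the 9 members and -0.01 for all genes tested. The plot of levels by library shows the members on a common axis.

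**Figure D1:**
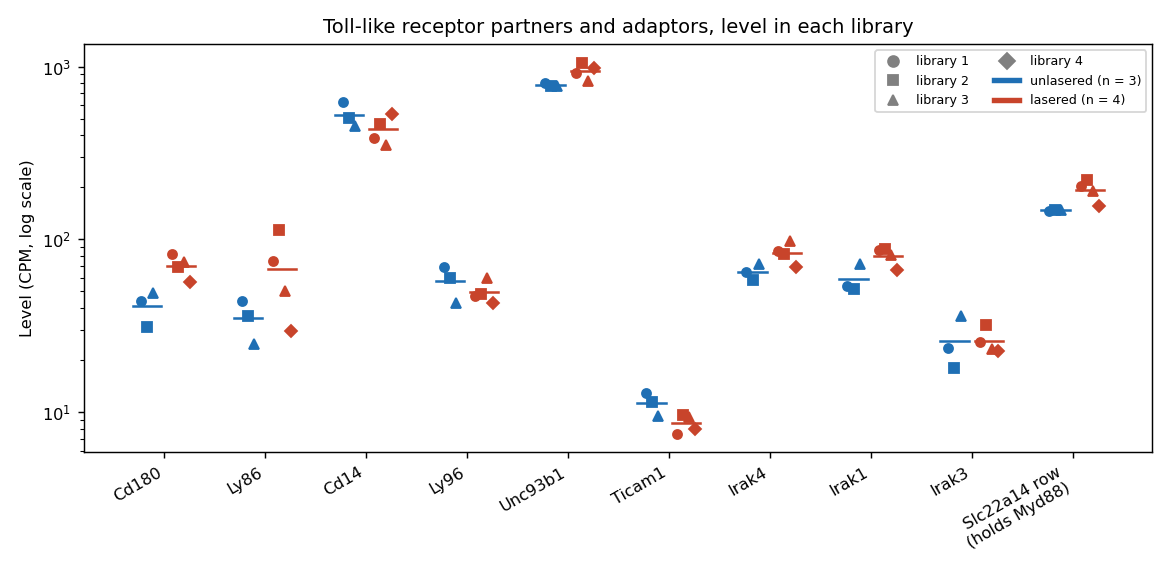
Level of each partner or adaptor in each library in CPM on a log axis, with unlasered libraries in blue and lasered libraries in red, symbols for the library number and bars for the group means. The lasered libraries lie above all unlasered libraries for Cd180, Unc93b1 and the Slc22a14 row that holds the Myd88 reads, while Ly86 spreads from 29.6 to 113 CPM among the lasered libraries.

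CD180 and MD-1 form a receptor complex at the cell surface. CD180, also named RP105, has a leucine-rich ectodomain like that of TLR4 but lacks the signalling domain inside the cell, and it dampens TLR4 responses in macrophages. MD-1, encoded by Ly86, binds CD180 and is needed for its place at the surface. Cd180 (ENSMUSG00000021624, protein-coding, chromosome 13 of GRCm38, 102693558 to 102739629, plus strand) was measured at 43.9, 31.1 and 48.9 CPM in unlasered libraries 1, 2 and 3. With laser it had 82.0, 69.6, 73.6 and 56.5 CPM in libraries 1 to 4. The groups did not overlap, as was the case for 21% of all genes tested in either direction and 10.4% as higher. The mean was 41.3 ± 9.18 CPM (SD, n = 3) without and 70.4 ± 10.6 CPM (SD, n = 4) with laser, a 1.70-fold difference of the means. The log2 fold change was 0.77 (standard error 0.19, 95% confidence interval 0.34 to 1.20, adjusted p = 0.0460 from limma).

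This call lay close to the threshold. Leaving out 1 library at a time kept the direction with log2 fold changes of 0.58 to 0.90, and the call held for 2 of the 7 libraries, without unlasered library 3 (adjusted p = 0.0355 from limma) and without lasered library 4 (adjusted p = 0.0473). It was lost without unlasered library 1 (0.0787) or 2 (0.109), or lasered library 1 (0.129), 2 (0.116) or 3 (0.113). With whole reads recovered from the CPM values, the quasi-likelihood test of edgeR gave an adjusted p of 0.0380. Unlasered library 2, the lowest for Cd180, was also the library with the most rod RNA, and without it the log2 fold change was 0.58. Whether rod RNA bears on the Cd180 level was not tested. CD180 is also known from B cells, where it was first studied. Among B cell markers Ms4a1, Pax5 and Cd79a had lower means after laser, unlike Cd180. Ms4a1 had 0.789 to 1.32 CPM without and 0.0436 to 0.780 CPM with laser, and Pax5 had 0.263 to 1.91 and 0.215 to 0.249 CPM. Cd79a had 1.26 to 5.73 CPM without and 0 to 1.65 CPM with laser (log2 fold change -1.17, limma adjusted p = 0.131). Ighm was measured at 40.5 to 71.0 CPM without and 16.3 to 58.7 CPM with laser. Cd79b lay higher after laser, like Cd180, with 7.13 to 17.1 CPM without and 17.9 to 23.3 CPM with laser. Its groups did not overlap (log2 fold change 0.60, limma adjusted p = 0.247). The sum of 6 B cell markers was 49.9 to 97.9 CPM without and 37.0 to 79.1 CPM with laser. The part of B cells in the Cd180 level was not tested. The exons of Cd180 overlap those of Mast4 on the other strand, and the library kit does not mark strand, so reads of the pair cannot be told apart there. Mast4 was measured at 10.8 to 20.1 CPM in unlasered and 12.98 to 21.7 CPM in lasered libraries, well under Cd180.

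Ly86 (ENSMUSG00000021423, protein-coding, chromosome 13, 37345208 to 37419036, plus strand) was measured at 44.3, 36.1 and 24.96 CPM in unlasered libraries 1, 2 and 3, and at 75.2, 113, 50.3 and 29.6 CPM in lasered libraries 1 to 4. Lasered libraries 1 to 3 lay above all unlasered libraries, and lasered library 4 lay among them. The mean was 35.1 ± 9.69 CPM (SD, n = 3) without and 67.1 ± 35.9 CPM (SD, n = 4) with laser. The lasered libraries differed 3.82-fold between the lowest and the highest, the widest spread of the 9 members in either group. The log2 fold change of 0.79 was as large as that of Cd180, but its standard error of 0.40 was larger and it did not pass (95% confidence interval -0.11 to 1.69, adjusted p = 0.281 from limma).

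Among the lasered libraries Ly86 had the same order as genes of MHC class II, which present antigen on dendritic cells and on activated macrophages. In lasered libraries 1 to 4 H2-Ab1 had 858, 1497, 114 and 28.6 CPM. Ccr7, the receptor of migrating dendritic cells, is not of that class and was highest in library 1, with 74.8, 68.5, 5.34 and 3.10 CPM. In the unlasered libraries the order differed, since H2-Ab1 was highest in library 3 with 79.4 CPM, where Ly86 was lowest. Of the 12 dendritic cell markers 11 were tested and 10 had a log2 fold change above 0, yet 0 passed (limma), 5 at an unadjusted p under 0.05. In lasered libraries 1 to 4 Flt3 had 15.5, 27.5, 1.74 and 3.42 CPM, and Itgax had 65.4, 68.3, 19.6 and 9.45 CPM. Cd209a had 7.61, 8.93, 2.87 and 0.242 CPM there and at most 0.0979 CPM without laser. Its groups did not overlap (limma adjusted p = 0.0825). Xcr1 was the 1 with a log2 fold change below 0 (-0.44, limma adjusted p = 0.322). Clec9a stayed at or below 0.245 CPM. Every library carries the label Irf8 KO, so a part of the genotype in this low level cannot be read here. Zbtb46 was as high without laser (14.9 to 36.6 CPM) as with it (23.5 to 26.3 CPM). The monocyte gene Ccr2 moved with the same libraries, at 81.5 and 128 CPM in lasered libraries 1 and 2 and at 19.7 and 7.57 CPM in 3 and 4, while the sum of the 7 monocyte markers was 23.4 to 73.4 CPM without and 13.5 to 208 CPM with laser. Without lasered libraries 1 and 2 the log2 fold change of Ly86 was 0.17 (adjusted p = 0.892 from limma) and that of Cd180 was 0.65 (adjusted p = 0.314). The part of dendritic cells or monocytes in the Ly86 level was not tested.

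**Figure D2:**
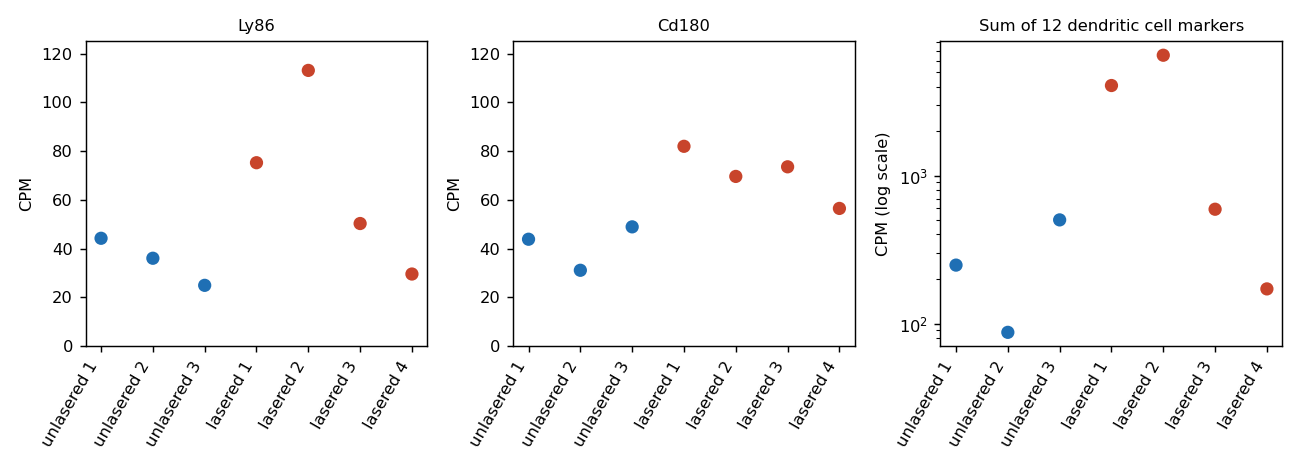
Ly86 and Cd180 in CPM on a linear axis from 0 and the sum of 12 dendritic cell markers in CPM on a log axis, for the 3 unlasered (blue) and 4 lasered (red) libraries. Ly86 and the marker sum were both highest in lasered libraries 1 and 2, while Cd180 stayed between 56.5 and 82.0 CPM in all lasered libraries.

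The sequences before both genes are shown because the encoded proteins form a single complex. They come from the 250 bases before a transcript start of RefSeq in GRCm38.p6, on the plus strand. The Cd180 line gives the whole window, chr13:102693308-102693557, which ends at the gene start given above. The RefSeq start of Ly86 lies within the gene as GENCODE places it, so the Ly86 line gives only the 113 bases before that gene, chr13:37345095-37345207, and the other 137 bases of its window are not shown.
Cd180: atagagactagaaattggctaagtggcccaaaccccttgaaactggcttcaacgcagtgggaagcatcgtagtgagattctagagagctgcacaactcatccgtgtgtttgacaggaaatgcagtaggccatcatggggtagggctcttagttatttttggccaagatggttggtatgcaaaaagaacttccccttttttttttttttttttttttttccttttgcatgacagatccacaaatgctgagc
Ly86: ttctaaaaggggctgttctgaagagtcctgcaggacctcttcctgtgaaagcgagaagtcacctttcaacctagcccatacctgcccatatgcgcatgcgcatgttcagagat
In the full windows 4 motifs were searched on both strands: the composite ETS-IRF element (GGAA, then any 2 bases, then GAAA), the interferon response element (GAAA, then any 2 bases, then GAAA), the PU.1 core (GAGGAA) and the NF-kB element (GGGA, then any 4 bases, then CC). The first and second can share bases, as can the first and the PU.1 core. Neither window held a match, which says only that these letters are not there. Of 32851 such windows in the table, 2.30% held the first, 2.98% the second, 23.3% the third and 17.6% the fourth. Entries were matched for 7 of the 10 members, and 4 of the 7 held a match in at least 1 window. Cd180, Irak1 and Irak3 had 2 windows each. The share of all windows with any of the 4 motifs was not counted, so the 4 of 7 has no background beside it. The match is shown in capitals within 30 bases for Myd88 (interferon response element, chr9:119340039-119340068), Ticam1 (PU.1 core, chr17:56276780-56276809) and Irak1 (NF-kB element, chrX:74023920-74023949), all on the minus strand. The Myd88 stretch lies within the gene span given below, and the Ticam1 stretch crosses its start. Irak3 had 2 windows: the one at the start of its annotated gene held no match, and the one at a start within the gene held 1 NF-kB element.
Myd88: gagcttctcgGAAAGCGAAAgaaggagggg
Ticam1: agacccggaaggGAGGAAggggcggaaccg
Irak1: agggcggcgcGGGACGCCCCcgtgtggcgg

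The genes with a pattern most like that of Cd180 over the 7 libraries were Ell2, Anxa6, Colgalt1, Lpp and Tnfsf8, with Pearson correlations of 0.995 to 0.982 on the log2(CPM + 1) scale among 10287 other genes with a mean of at least 10 CPM. For Ly86 they were 1810058I24Rik, Atf3, Gm13578, Gm10080 and BC005537, with 0.987 to 0.972. The correlation between Cd180 and Ly86 was 0.596. Genes of the same libraries share depth and cell makeup, and with so many genes and 7 libraries high values are frequent, so these are descriptions only.

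CD14 and MD-2 serve TLR4, the receptor of bacterial lipopolysaccharide. CD14 hands the lipid to the receptor complex, and MD-2, encoded by Ly96, binds it within the complex. Cd14 (ENSMUSG00000051439, protein-coding, chromosome 18, 36725067 to 36726798) was measured at 624, 502 and 451 CPM in unlasered libraries 1 to 3 and at 384, 467, 352 and 534 CPM in lasered libraries 1 to 4. The groups overlapped, with lasered library 4 above 2 of the unlasered libraries. The log2 fold change was -0.28 (standard error 0.17, 95% confidence interval -0.67 to 0.11, adjusted p = 0.381 from limma). Ly96 (ENSMUSG00000025779, protein-coding, chromosome 1, 16688051 to 16709611) was measured at 68.9, 59.8 and 43.1 CPM in unlasered and at 46.9, 48.0, 59.5 and 42.8 CPM in lasered libraries. Its groups overlapped as well (log2 fold change -0.20, standard error 0.19, 95% confidence interval -0.62 to 0.23, limma adjusted p = 0.592). Tlr4 itself was measured at 185 to 281 CPM without and 171 to 215 CPM with laser (log2 fold change -0.18, adjusted p = 0.565).

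UNC93B1 carries TLR3, TLR7, TLR9 and other receptors of nucleic acids from the endoplasmic reticulum to the endosome. Unc93b1 (ENSMUSG00000036908, protein-coding, chromosome 19, 3935186 to 3949340) was measured at 801, 767 and 771 CPM in unlasered libraries 1 to 3. With laser it had 912, 1055, 825 and 982 CPM in libraries 1 to 4. The unlasered libraries differed 1.04-fold at most and lay under every lasered library. The log2 fold change was small, 0.27 (standard error 0.11, 95% confidence interval 0.01 to 0.52), and did not pass after adjustment (adjusted p = 0.199 from limma). Of the receptors it carries, Tlr7 was measured at 249 to 437 CPM without and 289 to 391 CPM with laser (log2 fold change 0.07, adjusted p = 0.863). Tlr3 lay between 22.0 and 63.0 CPM without and between 32.5 and 55.6 CPM with laser (log2 fold change 0.24, adjusted p = 0.720). Tlr9 was near the lower limit of the test, with 0.666 to 1.66 CPM without and 1.10 to 3.75 CPM with laser (log2 fold change 0.82, adjusted p = 0.166).

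MyD88 and TRIF are the adaptors that bind the receptors inside the cell. TLR3 signals through TRIF, encoded by Ticam1, TLR4 uses both, and the other receptors signal through MyD88. Ticam1 (ENSMUSG00000047123, protein-coding, chromosome 17, 56269319 to 56276786) was the lowest member, with 12.97, 11.5 and 9.52 CPM in unlasered libraries 1 to 3 and 7.52, 9.64, 9.41 and 7.97 CPM in lasered libraries 1 to 4, from 265 to 433 reads per library. The groups overlapped only between unlasered library 3 and lasered library 2. The log2 fold change was -0.35 (standard error 0.18, 95% confidence interval -0.76 to 0.05, adjusted p = 0.286 from limma). Myd88 (ENSMUSG00000032508, protein-coding, chromosome 9, 119335934 to 119341411) lies within the span of Slc22a14 on the same strand, and its identifier appeared only in the row of Slc22a14, together with those of further overlapping genes. The exons of Myd88 do not overlap those of Slc22a14, but they overlap those of Acaa1a on the other strand. That row was measured at 146, 149 and 147 CPM in unlasered libraries 1 to 3 and at 204, 222, 192 and 156 CPM in lasered libraries 1 to 4. The groups of this row did not overlap, but the log2 fold change of 0.38 did not pass (95% confidence interval 0.07 to 0.69, standard error 0.14, limma adjusted p = 0.141). How much of the row belongs to Myd88 cannot be read from it.

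IRAK4 and IRAK1 are kinases that join MyD88 in turn, and IRAK3, also named IRAK-M, lacks kinase activity and restrains the signal in macrophages. Irak4 (ENSMUSG00000059883, protein-coding, chromosome 15, 94543643 to 94581815) was measured at 64.5, 58.3 and 71.9 CPM in unlasered and at 85.5, 81.9, 97.7 and 69.6 CPM in lasered libraries. Lasered libraries 1 to 3 lay above all unlasered libraries and lasered library 4 did not (log2 fold change 0.36, standard error 0.15, 95% confidence interval 0.02 to 0.69, adjusted p = 0.196 from limma). Its exons overlap those of Twf1 on the other strand, which was measured at 16.9 to 28.1 CPM over all libraries. Irak1 (ENSMUSG00000031392, protein-coding, chromosome X, 74013914 to 74023918) was measured at 53.6, 51.5 and 71.8 CPM in unlasered and at 86.3, 88.2, 81.3 and 66.6 CPM in lasered libraries. Here too lasered library 4 fell among the unlasered libraries (log2 fold change 0.45, standard error 0.16, 95% confidence interval 0.08 to 0.82, adjusted p = 0.138 from limma). Irak1 passed in 1 of 16 alternative fits, that without unlasered library 3 (log2 fold change 0.60, limma adjusted p = 0.0457). In that fit 1406 genes passed, against 1213 with all 7 libraries.

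Part of the Irak1 reads was listed jointly with Mir5132, a microRNA gene within it. Another microRNA gene, Mir718, also overlaps the exons of Irak1 on the same strand and is not shown. The mature forms of Mir5132 are from RefSeq in GRCm38.p6, on the minus strand of chromosome X. Their seed (bases 2 to 8) is in capitals.
mmu-miR-5132-5p: gCGUGGGGugguggacucagg
mmu-miR-5132-3p: cUGAUGUUccccaucccgcag
They lie at chrX:74023571-74023591 and chrX:74023534-74023554. Reads over them cannot be assigned to the microRNA or to Irak1.

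Irak3 (ENSMUSG00000020227, protein-coding, chromosome 10, 120141648 to 120202130) was measured at 23.4, 17.9 and 36.0 CPM in unlasered and at 25.4, 32.0, 23.1 and 22.5 CPM in lasered libraries. The lasered values all lay within the unlasered range. The log2 fold change was 0.04 (standard error 0.24, 95% confidence interval -0.49 to 0.58, adjusted p = 0.940 from limma), an interval that leaves room for differences as large as that of Irak1 in either direction. Its exons overlap those of Tmbim4 on the other strand, which was measured at 134 to 176 CPM, above Irak3, so the Irak3 level is uncertain.

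**Figure D3:**
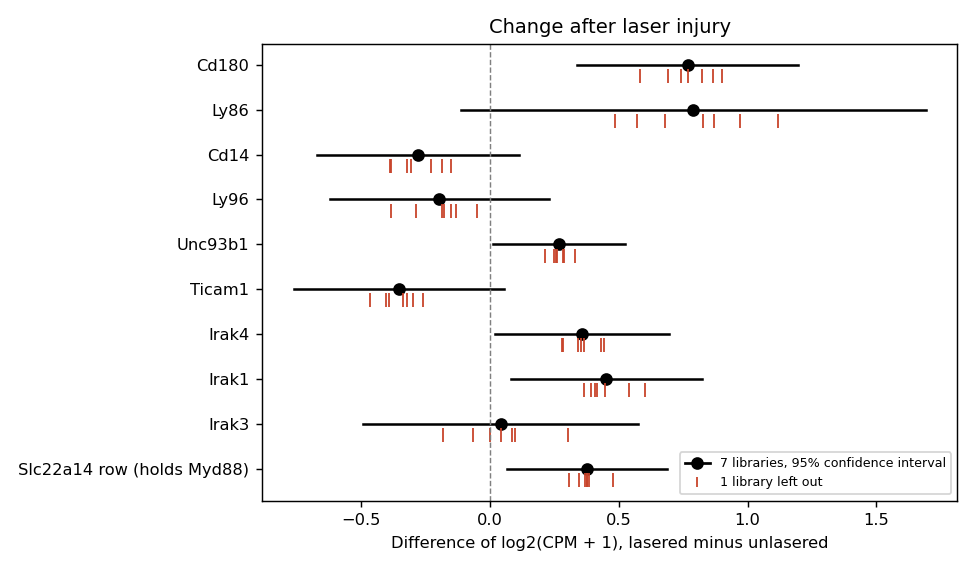
Difference of log2(CPM + 1) between lasered and unlasered libraries for each partner or adaptor and for the Slc22a14 row that holds the Myd88 reads, with points for all 7 libraries, lines for the 95% confidence interval and red ticks for the fits with 1 library left out. Cd180 has the interval farthest from 0, at 0.34 to 1.20, and the Irak3 ticks fall on both sides of 0.

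Divided by exon length, the members differed widely in level. Per kilobase of exon, Cd14 had 304 ± 51.3 CPM (SD, n = 3) and Unc93b1 had 257 ± 6.09 CPM (SD, n = 3) in unlasered libraries, and their ranges overlapped. Ly96 followed with 56.1 ± 12.8 CPM per kilobase, its range apart from those above and below. Then came Irak4 (12.9), Irak1 (12.5), Ly86 (9.66), Cd180 (9.16) and Irak3 (7.02), each overlapping with the next, and Ticam1 was the lowest at 3.79 CPM per kilobase with a range of its own. In lasered libraries Unc93b1 was first with 311 ± 32.4 and Cd14 second with 251 ± 47.5 CPM per kilobase (SD, n = 4), again overlapping, and Ly86 (18.5), Irak1 (17.1), Irak4 (16.7) and Cd180 (15.6) overlapped in turn. Irak3 (7.01) and Ticam1 (2.89) stayed last. Cd14 and Unc93b1 were above 99.0% of the tested genes in this unit in both groups, and Ticam1 was above 41.3% without and 35.8% with laser.

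Ratios between partner transcripts were formed within each library, where they do not depend on the library total. Ly86 reads per Cd180 read numbered 1.01, 1.16 and 0.510 in unlasered and 0.918, 1.62, 0.684 and 0.524 in lasered libraries. Both groups held libraries above and below an even ratio, and the mean log2 difference was 0.02 (p = 1 in a two-sided exact permutation test). Ly96 to Tlr4 and Cd14 to Tlr4 differed by -0.02 and -0.10 on the log2 scale (exact permutation p = 0.971 and 0.914). Unc93b1 to Tlr7 differed by 0.20 (exact permutation p = 0.514), Irak1 to Irak4 by 0.10 (exact permutation p = 0.400) and Irak3 to Irak4 by -0.32 (exact permutation p = 0.343). The groups overlapped for all 6 ratios, and the adjusted p over the 6 was 1 for each. The smallest p this design allows is 0.0571, so no ratio could have passed 0.05.

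**Figure D4:**
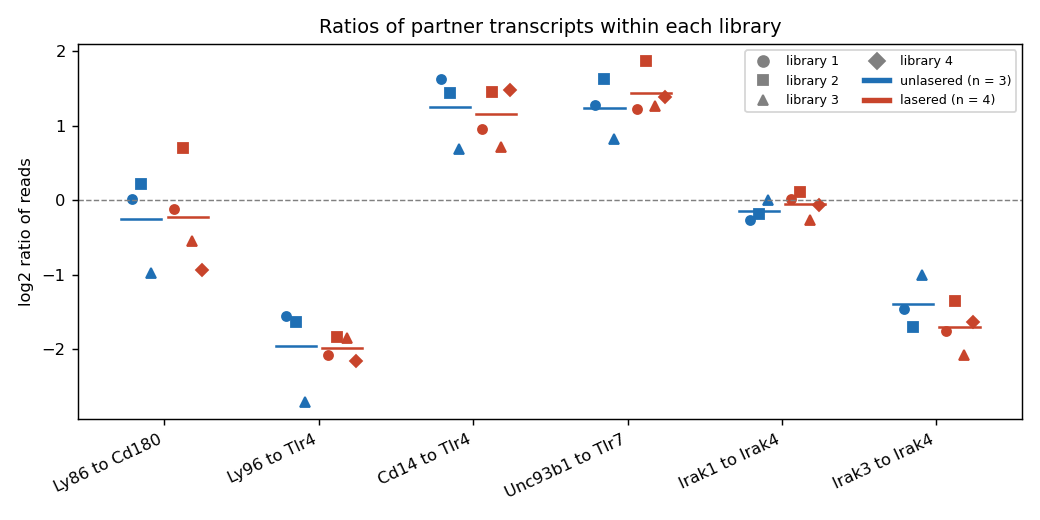
Log2 ratio of reads between partner transcripts in each library, with unlasered libraries in blue, lasered libraries in red, symbols for the library number and bars for the group means. The groups overlap for all 6 ratios, and the Irak1 to Irak4 ratio stays within -0.27 to 0.11 in all libraries.

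Of 76 further genes of the pathway, 68 were tested and 7 passed, 6 higher and 1 lower after laser injury, or 10.3% against the 6.93% of all genes tested. Their median log2 fold change was 0.07. Of 12 Toll-like receptor genes 10 were tested and 0 passed (limma), 3 of them at an unadjusted p under 0.05. Tlr2 was among these, with 273 to 338 CPM without and 357 to 446 CPM with laser, groups that did not overlap (log2 fold change 0.34, adjusted p = 0.151). None passed among 6 other partners and chaperones or 4 other adaptors (0 of both in limma, 1 of each at an unadjusted p under 0.05).

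Of the 7 that passed, 3 were cytokine and enzyme targets, 2 transcription factors, 1 an inhibitory receptor and 1 a ubiquitin ligase. Irf7, a transcription factor of the interferon response that MyD88-dependent receptors activate, was measured at 70.9, 85.5 and 74.1 CPM without and at 337, 316, 239 and 206 CPM with laser (log2 fold change 1.80, standard error 0.18, limma adjusted p = 0.00265). Its exons overlap those of Phrf1 on the other strand. Ccl5 and Ccl4, chemokines that attract lymphocytes and monocytes, rose as well. Ccl5 was measured at 2.59, 5.93 and 2.55 CPM without and at 30.6, 29.4, 15.5 and 14.6 CPM with laser (log2 fold change 2.32, adjusted p = 0.00947). Ccl4 went from 10.3 ± 1.53 CPM (SD, n = 3) to 30.4 ± 6.27 CPM (SD, n = 4), which is 1.47 on the log2 scale (adjusted p = 0.00749). Socs3, a feedback inhibitor of cytokine signalling, rose from 73.5 ± 16.8 CPM (SD, n = 3) to 148 ± 20.6 CPM (SD, n = 4), or by 1.01 on the log2 scale (adjusted p = 0.0160). Relb, an NF-kB subunit, was measured at 33.3 to 39.4 CPM without and 49.5 to 60.4 CPM with laser (log2 fold change 0.54, adjusted p = 0.0477). The Relb call was lost in 11 of 16 alternatives, among them voom (0.0581) and every fit with 1 library left out except that without unlasered library 3 (0.0913 to 0.143). The calls of Irf7, Ccl5 and Ccl4 held whichever single library was left out, and that of Socs3 was lost without lasered library 1 (0.0504) or 2 (0.0574). Irf7, Ccl5 and Socs3 were highest in lasered libraries 1 and 2, which had the most dendritic cell marker RNA, whereas Ccl4 was highest in library 3. Without lasered libraries 1 and 2 the log2 fold changes were 1.52 for Irf7, 1.85 for Ccl5, 1.53 for Ccl4 and 0.84 for Socs3. The part of other cells in these levels was not tested.

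Among these 68 genes Peli1 alone passed as lower. It encodes a ubiquitin ligase that acts with the IRAK proteins, and it fell from 149, 127 and 152 CPM in unlasered to 91.8, 78.3, 95.3 and 102 CPM in lasered libraries (log2 fold change -0.63, standard error 0.14, adjusted p = 0.0302 from limma). The Peli1 call was lost in 7 of 16 alternatives, among them the fits without unlasered library 1 (0.0775) and without lasered library 1 (0.0851), 2 (0.0865) or 3 (0.0713). Sigirr, which encodes an inhibitory receptor of the same superfamily, had 1, 0 and 68 reads in unlasered libraries 1 to 3. In lasered libraries 1 to 4 it had 7.001, 5.43, 2.57 and 2.99 CPM (limma adjusted p = 0.0374), also highest in libraries 1 and 2. It was at or under the floor in 2 libraries, its fitted log2 fold change of 1.85 became 3.78 with a pseudocount of 0.1, and on recovered reads it was not called by edgeR (adjusted p = 0.208), DESeq2 (0.270) or voom (0.0541). The Sigirr call was lost in 12 of the 16, and of the fits with 1 library left out it held only without unlasered library 3. The number of these 68 genes that passed was 11 without unlasered library 3, 4 without lasered library 1, 3 without lasered library 2 and 4 without lasered library 3. Without lasered libraries 1 and 2 together 0 passed (limma), 12 at an unadjusted p under 0.05.

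**Figure D5:**
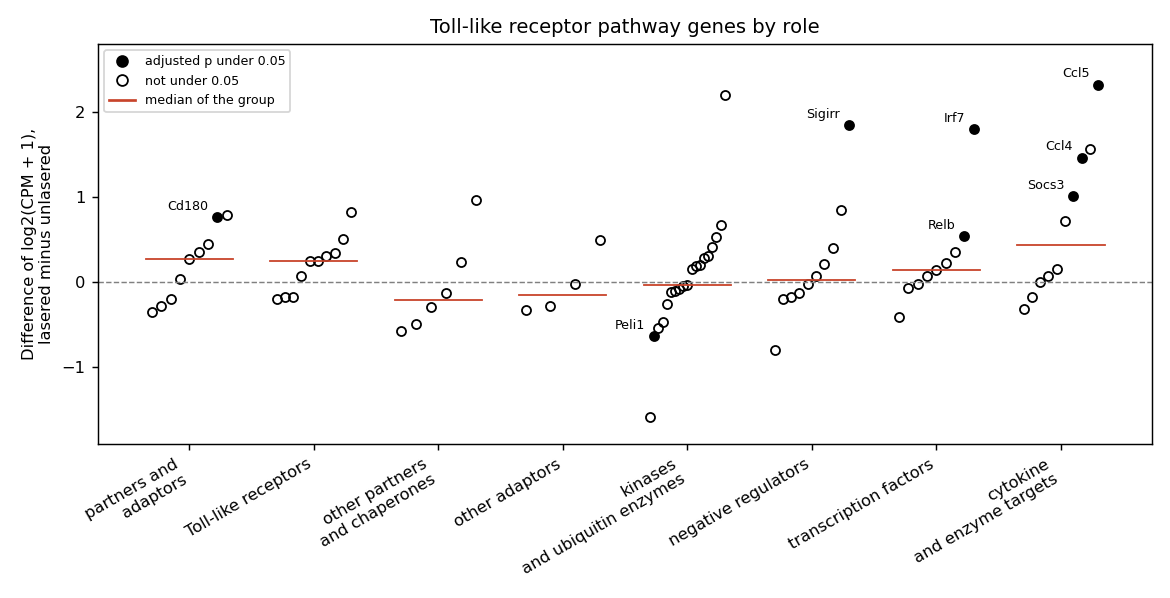
Difference of log2(CPM + 1) between lasered and unlasered libraries for the 9 measured partners and adaptors and for 68 further pathway genes grouped by role, with filled points for an adjusted p under 0.05 and red bars for group medians. Cd180 is the only filled point among the partners and adaptors, and the largest filled values belong to Ccl5 at 2.32, Sigirr at 1.85 and Irf7 at 1.80.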

How the data were processed

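RNA was sequenced from sorted rMG in 7 libraries. Per the methods and the submitters' processing notes, the authors removed adapters and duplicates (cutadapt, FastUniq), mapped reads with bowtie2 to GRCm38 and counted them per gene with HTSeq. The deposited columns are headed TPM but hold CPM: 100% of the values were whole multiples of a step shared by all genes of a library (within 0.05 of a read), so whole reads were recovered. The SMARTer and Nextera XT kits do not mark strand. Exon lengths and coordinates are from GENCODE M21, in which 99.2% of genes were matched. The genes reported here and the gene lists were chosen with earlier results of these data known.

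Values were compared on log2(CPM + 1) with limma 3.58.1 in R 4.3.3 (mean-variance trend, robust empirical Bayes, two-sided, Benjamini-Hochberg adjustment over 17496 genes), and ratios with two-sided exact permutation tests in Python 3.11.15 (scipy 1.17.1). Fold changes on this scale understate those of low genes. The study used DESeq2 on counts. Alternatives included edgeR 4.0.16, DESeq2 1.42.0 and voom on recovered reads. Named pathway genes are those with an adjusted p under 0.05 and no overlap between groups, and the receptors Tlr2, Tlr3, Tlr4, Tlr7 and Tlr9. Leaving out lasered libraries 1 and 2 together was chosen after seeing the data. The ratios of Ticam1 and Irak4 to Myd88 were not formed, since Myd88 has no row. Values of 1 marker gene are not reported here.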

Additional observations from a re-analysis of the deposited data

How the results depend on the processing

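The lowest value of a member rested on 265 reads. Cd180, Ly86, Unc93b1, Irak1 and Irak4 stayed above 0 and Cd14, Ly96 and Ticam1 below 0 in all 16 alternatives tried, while Irak3 turned to -0.18 without unlasered library 2, to -0.06 without lasered library 2 and to -0.11 without lasered libraries 1 and 2 (-0.18 to 0.30 with 1 library left out). The Cd180 call was lost in 9 of the 16, with adjusted p-values from 0.00216 to 0.314. With 1 library left out, the number of members called was 0 to 2, that of the pathway genes 3 to 11, and that of all genes 262 (without lasered library 2) to 1406, with 407, 388 and 781 without lasered libraries 1, 3 and 4. The ratio differences then ranged from -0.34 to 0.26 for Ly86 to Cd180, -0.39 to 0.19 for Ly96 to Tlr4, -0.39 to 0.089 for Cd14 to Tlr4 and -0.014 to 0.39 for Unc93b1 to Tlr7. Without a filter on low values 38566 genes were tested, 385 of them and 0 members passed (4 members at an unadjusted p under 0.05), and with a mean of at least 10 reads 0 members passed (limma), where the Cd180 value was 0.0567. DESeq2 called 2318 genes, 1 member and 13 pathway genes; the cause was not tested. Without lasered libraries 1 and 2, 0 genes, 0 members and 0 pathway genes passed (limma), with 2400, 1 and 12 at an unadjusted p under 0.05 from fewer samples. The libraries share only a number: deviations of same-numbered libraries correlated at -0.18, -0.13 and -0.02. With the replicate number as a block, 3 genes, 0 members and 0 pathway genes passed (limma), with 3395, 4 and 19 at an unadjusted p under 0.05, and 0 of 3 unlasered libraries correlated best with their own number. The alternative of Irak1 reads listed under Irak1 alone was not run, since the row gives only the sum.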
